A study of Rattus norvegicus with 8 samples.

Results

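The DNA crosslink and damage repair genes described here are 50 genes chosen by name, and 44 of them had a probe on a 1-colour rat expression array, with 66 probes among the 45598 distinct probes of the array. Fancg, Xrcc3, Blm, Ercc5, Msh6 and Slx4 had no probe under these names. They were measured in hepatocytes of rat livers given retrorsine, a plant alkaloid that alkylates and crosslinks DNA after activation by hepatocytes, and then partial hepatectomy (the Ret/PH model), in which small hepatocyte-like progenitor cells (SHPCs) form clusters. All 8 samples were RNA of cells cut from frozen sections by laser microdissection (LMD) and came from F344 rats, 3 of them SHPC clusters of control livers, 3 SHPC clusters of livers that received bone marrow-derived mesenchymal cells (BM-MCs), and 2 mature hepatocytes (MHs) that the labels place in control livers. By the methods the recipients were female and DPPIV-negative, whereas the labels call the strain DPPIV-positive, and the BM-MCs were cultured adherent marrow cells, not purified, given through the spleen. The labels give no age or time, while the methods state 1 fixed day after transplantation for the harvest of recipient livers, and no animal is named for any sample. The p-values therefore reflect only how far samples of a group spread, and that spread may be technical.

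A crosslink joins both strands of DNA and stops the replication fork. The Fanconi anaemia core complex attaches ubiquitin to the FANCD2-FANCI clamp, nucleases then cut the DNA around the crosslink, translesion polymerases copy past the remnant, and homologous recombination rebuilds the fork, while checkpoint kinases hold the cell cycle. Nucleotide excision repair removes bulky adducts, outside replication as well. Several of these genes, among them Brca1, Brca2, Brip1, Fancd2, Exo1, Chek1, Clspn and Rad54l, are known to be transcribed mainly around S phase, so that dividing cells carry more of their mRNA, and Xpc, Ddb2 and Polh are known targets of p53. Most hepatocytes of an adult liver do not divide, and retrorsine blocks division of those that were exposed.

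The probes of the 3 genes that passed the test are shown because their signals carry the main result. Each is 60 bases long, and positions are those of the array's annotation, whose header names rn4. The files do not say in which exon a probe lies.
Exo1 probe, chr13:91641965-91642024: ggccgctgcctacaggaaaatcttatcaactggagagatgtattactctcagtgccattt
Brca1 probe, chr10:90512623-90512682: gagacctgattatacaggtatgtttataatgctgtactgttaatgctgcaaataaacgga
Rad18 probe, chr4:148482983-148483042: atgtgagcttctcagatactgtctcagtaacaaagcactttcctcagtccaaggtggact
The 3 probes of Clspn are shown because they gave different signals. In the order of their positions on chromosome 5, probes 2 and 3 start 17298 and 19068 bases beyond the end of probe 1.
Clspn probe 1, chr5:145947594-145947653: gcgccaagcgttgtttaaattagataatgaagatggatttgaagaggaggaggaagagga
Clspn probe 2, chr5:145964952-145965011: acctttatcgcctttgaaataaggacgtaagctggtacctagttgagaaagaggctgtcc
Clspn probe 3, chr5:145966722-145966781: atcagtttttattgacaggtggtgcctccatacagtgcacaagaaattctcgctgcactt

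Every level below is a probe's log2 signal minus the log2 of the 75th percentile on the same array, so that 0 is that percentile, and levels of different genes are not comparable. The 8 arrays lay on 1 slide in 2 sets of 4 arrays. Both MH samples and control SHPC replicates 1 and 2 were in set 1, and control SHPC replicate 3 and all BM-MC samples in set 2, so that set and transplantation largely coincide. Between 57.0% and 61.5% of spots were well above background, and 0 spots were saturated. Hepatocyte markers were measured in every sample, with a median difference from control SHPCs of -0.13 in MHs and -0.13 with BM-MCs over 8 markers. In bulk samples, fewer cells of a type and less RNA per cell cannot be told apart.

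Of the 44 repair genes with a probe, 33 were well above background on all 7 arrays with complete marks, 4 on 3 to 6 arrays, 3 on 1 or 2 arrays and 4 on none. The 37 genes of the first groups were tested. The 7 left out were Fancb, Fancd2, Fanci, Fancm, Brip1, Atr and Topbp1, so the clamp itself and the kinase ATR could not be followed. A gene with several probes is given by its brightest tested probe.

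The first question was how MHs, the non-proliferating neighbours, differ from control SHPCs. Brca1, Exo1 and Rad18 were lower in MHs past an adjusted p of 0.05 (limma with Benjamini-Hochberg adjustment over all probes), and 0 repair genes were higher. Among all 14535 genes tested, 0.998% were lower and 0.227% were higher by the same rule. At an unadjusted p under 0.05, limma gave 9 lower and 2 higher, beside 7.72% and 12.5% of all genes. At that unadjusted p the methods' t-test gave 6 lower and 2 higher, beside 1868 lower and 2169 higher of the 23111 probes. After adjustment it gave 0 in both directions, for repair genes and for all probes. The groups did not overlap for 11 genes with lower and 4 genes with higher levels in MHs, of 37. Over all genes 16.8% were lower and 25.5% were higher without overlap. Clspn is in the counts of higher genes at an unadjusted p and without overlap, but passed the filter only through the groups where it is high. The median log2 fold change of the 37 genes was -0.12, with 23 below and 14 above 0, and over all genes it was 0.057, with 42.7% below and 57.3% above 0. None of the 3 genes passed without MH replicate 1, control SHPC replicate 1, control SHPC replicate 2 or BM-MC SHPC replicate 2, and only Rad18 did without MH replicate 2. None passed either in a fit of only both groups or after normexp background correction. Within set 1 the log2 fold change was -1.57 for Brca1 (adjusted p = 0.0383), -2.26 for Exo1 (adjusted p = 0.0173) and -1.88 for Rad18 (adjusted p = 0.0649).

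The second question was whether the SHPCs of livers with BM-MCs differ from control SHPCs. No repair gene passed the adjusted threshold of limma in either direction, where the share over all genes was 0.0275% higher and 0% lower. At an unadjusted p under 0.05, limma gave 3 higher (Clspn, Ercc2 and Rev1) and 6 lower (Exo1, Polh, Rad18, Rad54l, Usp1 and Xrcc2), beside 10.3% and 5.85% of all genes. The methods' t-test gave 3 higher and 3 lower at an unadjusted p, beside 1876 higher and 1577 lower of the 23111 probes. After adjustment it gave 0 in both directions. The groups did not overlap for 5 genes with higher and 5 with lower levels, and over all genes these shares were 13.2% and 11.2%. Clspn is in the counts of higher genes at an unadjusted p and without overlap. It passed the filter only through the groups where it is high, so its place in these counts is no support. The median log2 fold change of the 37 genes was -0.082, with 24 below and 13 above 0, and over all genes it was 0.025, with 46.5% below and 53.5% above 0. Within set 2, where control SHPC replicate 3 is the lone control, the median was 0.0065 and 16 genes were below 0. Scaling to the median of each array lowers every log2 fold change with BM-MCs, and moved the median of all probes from 0.018 to -0.17 and the number of repair genes above 0 from 13 to 9.

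Between SHPCs with BM-MCs and MHs, no repair gene passed the adjusted threshold of limma, with 0.378% of all genes higher and 0.0275% lower in SHPCs. All MH samples were in set 1 and all BM-MC samples in set 2, so that group and set cannot be told apart within these samples. At an unadjusted p under 0.05 by limma, 8 were higher with BM-MCs and 1, Nbn, was lower, beside 6.8% and 6.72% of all genes. At that unadjusted p the methods' t-test gave 5 higher and 2 lower, beside 1015 higher and 1126 lower of the 23111 probes. The groups did not overlap for 13 genes with higher and 4 with lower levels, beside 14.8% and 18% of all genes. The median log2 fold change was 0.14, with 23 of 37 genes above and 14 below 0, where 47.3% of all genes were above and 52.7% below 0. It was -0.058 with 16 above 0 when arrays were scaled to their medians. The comparisons share samples, so their values stand side by side and were not set against each other.

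**Figure D1:**
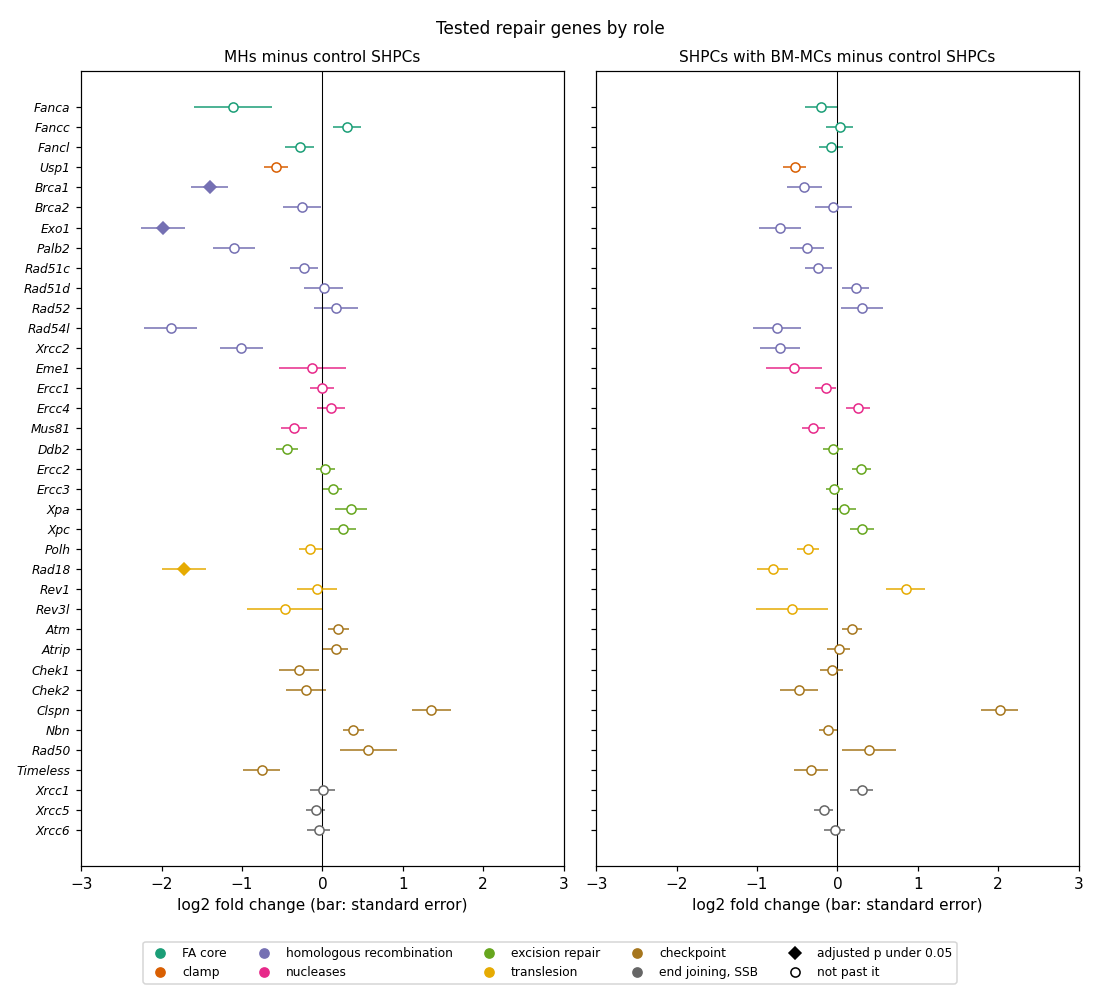
Log2 fold change (horizontal axis, bars show the standard error) of the 37 tested repair genes, ordered and coloured by role, for MHs minus control SHPCs (left) and SHPCs with BM-MCs minus control SHPCs (right). Filled diamonds mark the 3 genes with an adjusted p under 0.05, which are Brca1, Exo1 and Rad18 on the left, and open circles the others. The control signals of Clspn were not well above background, so that its points show no exact difference, and it was at least 2.27-fold (left) and 3.6-fold (right) higher.

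Homologous recombination had the lowest median of all roles in MHs. Of 9 tested genes, 7 were below 0 and 2 passed, with a median log2 fold change of -1.01. Over all genes 42.7% were below 0 and 0.998% passed as lower. Exo1, an exonuclease that resects DNA ends, was at -4.72 and -4.65 in MHs, at -2.54, -2.30 and -3.25 in control SHPCs, and at -3.65, -3.33 and -3.26 in SHPCs with BM-MCs. Brca1, which guides the resection of DNA ends, was at -3.47 and -3.40 in MHs, at -2.07, -1.67 and -2.36 in control SHPCs, and at -2.73, -2.35 and -2.26 with BM-MCs. For both genes each MH sample was below every SHPC sample. The log2 fold change in MHs was -1.99 for Exo1 (standard error 0.27, adjusted p = 0.0205) and -1.40 for Brca1 (standard error 0.23, adjusted p = 0.0378). With BM-MCs all samples of Exo1 were below all controls, by a log2 fold change of -0.72 (adjusted p = 0.268), but its highest BM-MC sample and its lowest control differed by little, and within set 2 the value was -0.17. For Brca1 the value was -0.41 (adjusted p = 0.381), the groups overlapped, and within set 2 it was -0.087. Brca1 and Exo1 each have another probe, and neither of these passed the filter on background.

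Rad54l, whose protein remodels DNA during recombination, was at -5.41 and -4.91 in MHs, at -3.73, -3.33 and -2.77 in control SHPCs, and at -4.47, -3.76 and -3.85 with BM-MCs. It lay just outside the threshold in MHs, with a log2 fold change of -1.89 (adjusted p = 0.0516). Control SHPC replicate 3 was its highest sample, unlike Exo1 and Brca1, for which that sample was the lowest control. With BM-MCs the value was -0.75 (adjusted p = 0.289), and -1.26 within set 2. By the order of its coordinates, the Rad54l probe reads the strand opposite to the gene in GRCr8, as do the probes of Ercc4 and both of Brca2, 4 of 59 repair gene probes with both strands known and 4.93% of all such probes. The builds differ, so this was not settled.

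Palb2, the link between BRCA1 and BRCA2, was at -4.20 and -4.82 in MHs, at -3.35, -3.14 and -3.75 in control SHPCs, and at -4.07, -3.75 and -3.55 with BM-MCs. Xrcc2, which acts in homologous recombination, was at -3.84 and -3.71 in MHs, at -2.62, -2.42 and -3.26 in control SHPCs, and at -3.67, -3.59 and -3.18 with BM-MCs. Neither gene passed in MHs, with log2 fold changes of -1.10 (adjusted p = 0.114) and -1.01 (adjusted p = 0.131), although MHs lay below all controls. Within set 1, Xrcc2 had a value of -1.25 and an adjusted p = 0.0391. Xrcc2 has another probe that shares 27 bases with the first, printed here in capitals, and its log2 fold change in MHs was -0.81.
Xrcc2 first probe: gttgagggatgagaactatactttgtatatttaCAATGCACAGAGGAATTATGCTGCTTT
Xrcc2 other probe: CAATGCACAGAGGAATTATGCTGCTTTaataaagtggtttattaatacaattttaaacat
The other 4 tested genes of this role, Brca2, Rad51c, Rad51d and Rad52, had log2 fold changes in MHs between -0.25 and 0.16. By these brightest probes they overlapped with controls. Brca2 depended on the probe, since its dimmer probe gave -0.91 (adjusted p = 0.126), without overlap, against -0.25 for the brighter one. The dimmer tested probes of Rad51d and Rad52 also did not overlap, at -0.32 (adjusted p = 0.374) and 0.34 (adjusted p = 0.641). That Rad51d probe was not well above background in MHs, and the Rad52 groups nearly met.

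**Figure D2:**
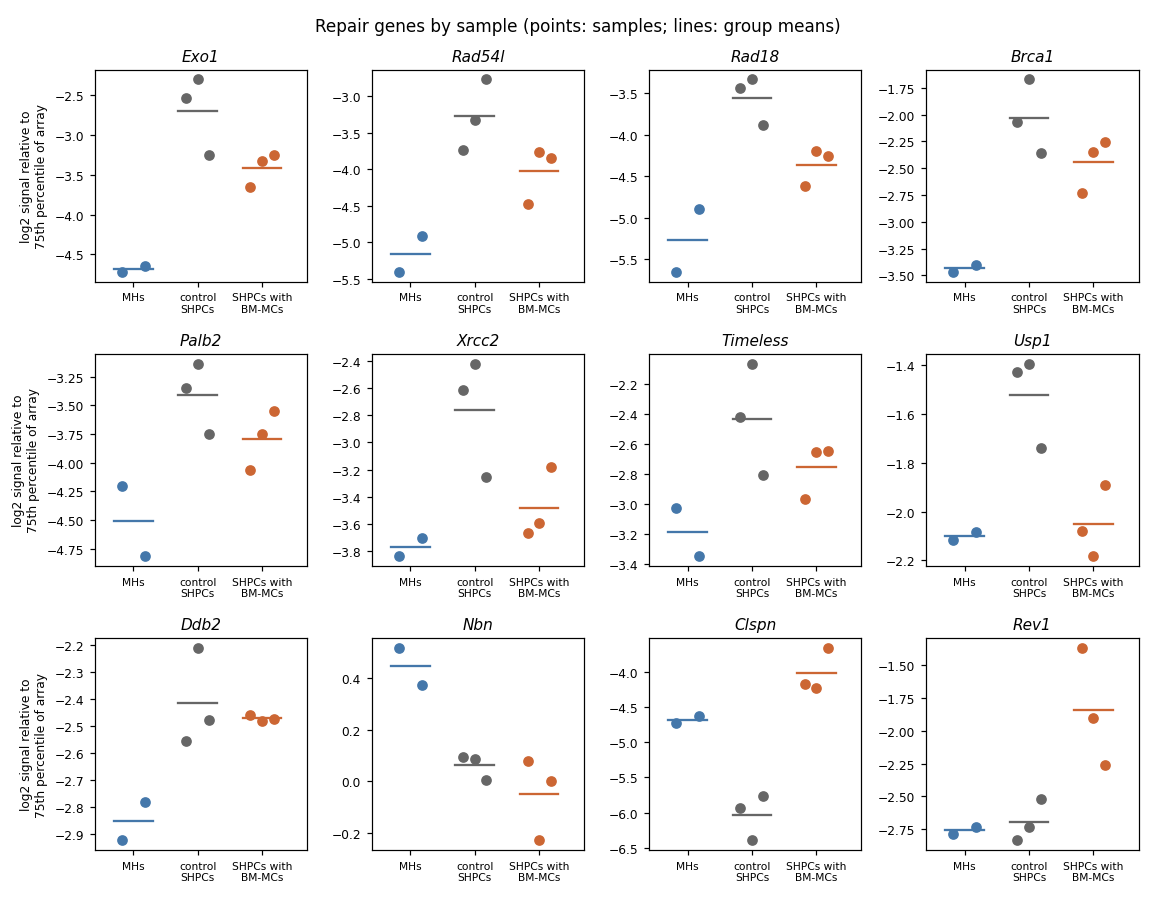
Log2 signal relative to the 75th percentile of the array (vertical axis, a separate scale for each gene) of 12 repair genes in the 2 MH samples, 3 control SHPC samples and 3 samples of SHPCs with BM-MCs. Points are samples and lines are group means. MHs lie below all controls for Exo1, Rad54l, Rad18, Brca1, Palb2, Xrcc2, Timeless, Usp1 and Ddb2 and above them for Nbn and Clspn.

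Of the Fanconi anaemia core complex, which attaches the ubiquitin, 3 of 6 genes were tested and none passed in any comparison. Fancl, the ubiquitin ligase, was at -3.45 and -3.81 in MHs, at -3.37, -3.26 and -3.41 in control SHPCs, and at -3.72, -3.32 and -3.25 with BM-MCs. Its differences stayed within -0.28 and 0.20. MHs lay below all controls, by -0.28 (adjusted p = 0.428), but the highest MH sample and the lowest control nearly met. Fancc had a log2 fold change of 0.31 in MHs and 0.029 with BM-MCs. Fanca had a value of -1.11 in MHs (adjusted p = 0.265), where its samples stood at -5.56 and -7.41 and only the first was well above background, and its other tested probe gave -0.18. Usp1, the deubiquitinase that resets the clamp, was at -2.12 and -2.08 in MHs, at -1.43, -1.39 and -1.74 in control SHPCs, and at -2.08, -2.18 and -1.89 with BM-MCs. All 5 samples of MHs and of SHPCs with BM-MCs were thus below all controls, by -0.58 (adjusted p = 0.133) and -0.53 (adjusted p = 0.194), and within set 2 by -0.31.

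Brip1 was above background only in control SHPCs, and Fancb in some samples of both SHPC groups but in no MH sample. The filter on 3 of 7 arrays kept both genes out of the test. Brip1, a helicase that binds BRCA1, was at -4.83, -4.74 and -4.70 in control SHPCs, all well above background, and not well above background on any other array, at -7.61 and -7.26 in MHs and at -5.66, -6.35 and -5.60 with BM-MCs. Its group mean was at least 2.77-fold lower in MHs and at least 1.84-fold lower with BM-MCs. This bound takes for each dim array the larger of the Brip1 signal and the lowest signal well above background there. It carries no sampling error. Limma without the filter gave an adjusted p of 0.0172 in MHs and 0.321 with BM-MCs, on signals not well above background there. Only 13 of 17381 genes detected on any array, 0.0748%, were above background on every control SHPC array with a mark and on no other. Brip1 was singled out after its values were seen.

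Fancb, a core complex gene, was at -5.12, -5.04 and -5.57 in control SHPCs, of which 2 of 3 were well above background, at -8.24 and -6.95 in MHs, which were not, and at -5.75, -5.50 and -5.52 with BM-MCs, of which 1 of 3 was. With each MH signal raised to the lowest signal well above background on its array, the control mean was 1.98-fold above MHs. That mean includes control SHPC replicate 3, itself not well above background, so this is no strict lower bound. Limma without the filter gave an adjusted p of 0.0877. Fancd2 was well above background on 1 array, BM-MC SHPC replicate 3, and Fanci, Fancm, Atr and Topbp1 on none.

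**Figure D3:**
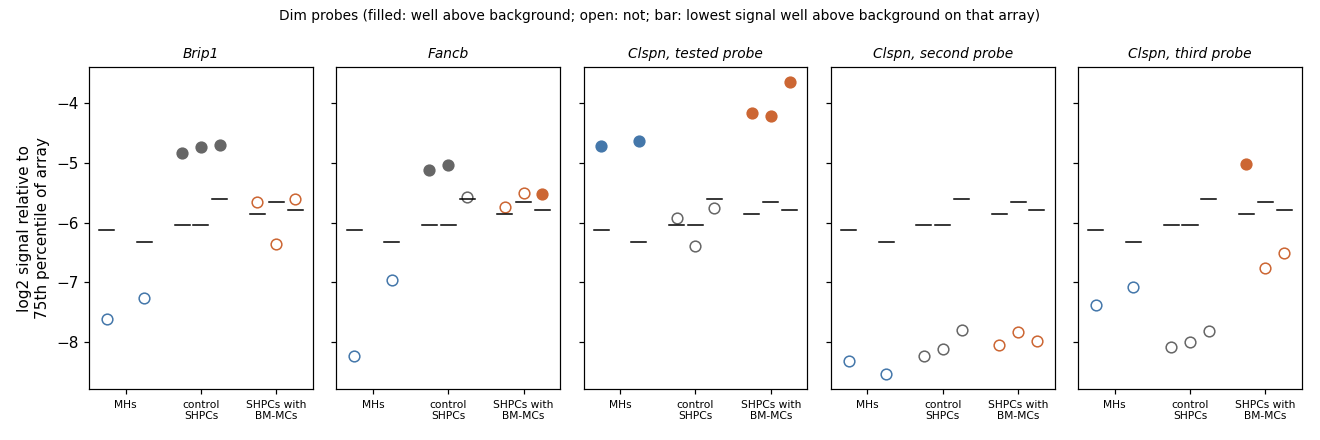
Log2 signal relative to the 75th percentile of the array (vertical axis) of Brip1, Fancb and the 3 probes of Clspn by sample. Filled points were well above background and open points were not, and the short bars give the lowest signal well above background on that array. Brip1 is filled in the 3 control SHPC samples only, and the tested Clspn probe in all samples but those 3.

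Among the nucleases, no gene passed. Ercc1 and Ercc4 encode the endonuclease that unhooks crosslinks. Ercc1 was at -0.51 and -0.72 in MHs, at -0.70, -0.41 and -0.73 in control SHPCs, and at -0.89, -0.71 and -0.67 with BM-MCs, and the groups overlapped (log2 fold change -0.0029 in MHs and -0.15 with BM-MCs). Ercc4 was at -2.08 and -1.80 in MHs, at -2.34, -1.93 and -1.88 in control SHPCs, and at -1.79, -1.74 and -1.85 with BM-MCs. The BM-MC samples of Ercc4 were above all controls, by 0.25 (adjusted p = 0.428), and by 0.082 within set 2. Mus81, which cuts stalled forks with EME1, was at -4.99 and -4.72 in MHs, at -4.40, -4.42 and -4.70 in control SHPCs, and at -4.98, -4.79 and -4.65 with BM-MCs. Its log2 fold change in MHs was -0.35 (adjusted p = 0.292), and its highest MH sample and lowest control nearly met.

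Nucleotide excision repair had values on both sides of the controls and no call among 5 tested genes. In MHs Xpa and Ercc3 lay above and Ddb2 below all controls, and the median log2 fold changes were 0.13 in MHs and 0.083 with BM-MCs. Ercc2 and Ercc3 encode the helicases of TFIIH. Ercc2 was at -1.85 and -1.79 in MHs, at -1.97, -1.86 and -1.75 in control SHPCs, and at -1.62, -1.46 and -1.60 with BM-MCs, where all samples were above all controls (log2 fold change 0.30, adjusted p = 0.278, and 0.19 within set 2). Ercc3 was at 1.47 and 1.58 in MHs, at 1.42, 1.42 and 1.36 in control SHPCs, and at 1.43, 1.27 and 1.38 with BM-MCs. Its difference in MHs was 0.13 (adjusted p = 0.57). Xpa, a scaffold of the incision complex, was at -1.14 and -1.65 in MHs, at -1.68, -1.78 and -1.79 in control SHPCs, and at -1.47, -1.58 and -1.95 with BM-MCs, and the MH samples differed from each other more than the lower one did from controls.

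The p53 targets had values in different directions. Xpc, a damage sensor, was at -2.47 and -2.21 in MHs, at -2.70, -2.65 and -2.46 in control SHPCs, and at -2.18, -2.18 and -2.53 with BM-MCs, overlapping in both comparisons (0.26 in MHs and 0.31 with BM-MCs). Ddb2, which recognises ultraviolet lesions, was at -2.92 and -2.78 in MHs, at -2.56, -2.21 and -2.48 in control SHPCs, and at -2.46, -2.48 and -2.47 with BM-MCs. MHs were below all SHPC samples for Ddb2, by -0.44 against controls (adjusted p = 0.168). Polh, a translesion polymerase, was at -2.18 and -2.23 in MHs, at -2.04, -1.87 and -2.26 in control SHPCs, and at -2.49, -2.31 and -2.46 with BM-MCs. With BM-MCs Polh was below all controls, by -0.36 (adjusted p = 0.274), by -0.16 within set 2, and by -0.042 with its dimmer probe. None of these differences passed the test.

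Rad18, the ubiquitin ligase that starts translesion synthesis, was at -5.66 and -4.89 in MHs, at -3.44, -3.33 and -3.89 in control SHPCs, and at -4.62, -4.20 and -4.26 with BM-MCs. The 3 groups did not overlap, with SHPCs of livers with BM-MCs between MHs and controls. Rad18 is named here for its call in MHs against these controls, and the share of all genes in this order was not counted. Its log2 fold change was -1.72 in MHs (standard error 0.27, adjusted p = 0.0371) and -0.81 with BM-MCs (standard error 0.20, adjusted p = 0.169), and -0.47 within set 2. Rev1, a deoxycytidyl transferase and scaffold of the translesion polymerases, was at -2.78 and -2.73 in MHs, at -2.83, -2.73 and -2.52 in control SHPCs, and at -1.37, -1.91 and -2.26 with BM-MCs. All BM-MC samples of Rev1 were above all other samples, by 0.85 against controls (adjusted p = 0.201) and 0.67 within set 2, and they spread more widely than the controls did. Rev3l, the catalytic subunit of polymerase zeta, stood at -1.41 in control SHPC replicate 3 and between -3.29 and -2.80 in the other 7 samples.

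Among the checkpoint genes, Clspn was above background in MHs and in SHPCs with BM-MCs and not in control SHPCs, and it passed the filter only through the groups where it is high. Its protein, claspin, links ATR to CHEK1 at stalled forks. Probe 1, the tested one, was at -4.72 and -4.63 in MHs, at -5.93, -6.40 and -5.76 in control SHPCs, and at -4.16, -4.22 and -3.65 with BM-MCs, and it was well above background in all samples but the controls. Levels were at least 3.6-fold higher with BM-MCs (adjusted p = 0.0702) and at least 2.27-fold higher in MHs (adjusted p = 0.0525) than in control SHPCs. Neither passed, and both p-values rest on control signals that were not above background. Probe 2 was not well above background on any array, from -8.54 to -7.79, and probe 3 only in BM-MC SHPC replicate 1, at -5.03, where the other 7 samples lay between -8.08 and -6.52. At probe 3 the control SHPC samples, between -8.08 and -7.82, were below all others, as at probe 1, but only 1 of these signals was above background, and probe 2 measured no group.

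Timeless, which protects the fork, was at -3.03 and -3.35 in MHs, at -2.42, -2.07 and -2.81 in control SHPCs, and at -2.97, -2.65 and -2.65 with BM-MCs, with a log2 fold change of -0.76 in MHs (adjusted p = 0.164) and -0.33 with BM-MCs, which turned above 0 within set 2. Nbn, a subunit of the complex that senses double-strand breaks, had MH samples above all SHPC samples. It was at 0.52 and 0.37 in MHs, at 0.095, 0.085 and 0.0036 in control SHPCs, and at 0.080, -0.23 and 0 with BM-MCs, and its log2 fold change in MHs was 0.38 (adjusted p = 0.197). The kinase genes Atm, Chek1 and Chek2 and the ATR partner Atrip overlapped with controls in both comparisons, with log2 fold changes between -0.48 and 0.20. Rad50 had 0.57 in MHs and 0.39 with BM-MCs and was well above background on 5 of 7 arrays.

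End joining and single-strand break repair had 3 tested genes and no call. Xrcc5 and Xrcc6, the Ku subunits, had log2 fold changes between -0.17 and -0.036 in both comparisons. Xrcc5 is covered by 2 probes of the same 60 bases, which gave -0.086 and -0.13 in MHs and -0.17 and -0.075 with BM-MCs. These are differences of group means. On single arrays the probes read, for example, 0.39 and 0.24 in MH replicate 2, and 0.25 and 0.24 in BM-MC SHPC replicate 1. Xrcc1, a scaffold of single-strand break repair, was at -0.04 and -0.25 in MHs, at -0.32, -0.04 and -0.10 in control SHPCs, and at 0.11, 0.34 and 0.0057 with BM-MCs, and its BM-MC samples were above all others, by 0.30 against controls (adjusted p = 0.338) and 0.25 within set 2.

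The repair genes were then set beside proliferation. Of the 16 repair genes listed as transcribed around S phase, 10 were tested, and 9 of these were below 0 in MHs, with a median of -0.67 and 2 calls. Of the 27 tested genes outside that list, 14 were below 0, with a median of -0.0029 and 1 call, Rad18. Their values ranged from -1.72 to 0.57. Over all genes 42.7% were below 0 and 0.998% were called lower. In SHPCs with BM-MCs the medians were -0.37 with 9 of 10 below 0 and -0.038 with 15 of 27 below 0. Both lists had 0 calls, and 46.5% of all genes were below 0. Within set 2 the median of the S-phase list was 0.05, with 4 of 10 below 0, and within set 1 that of MHs was -0.82. Clspn was the 1 gene of the S-phase list above 0 in each comparison with controls. The lists were chosen with earlier results of these data known, and the difference between them was not tested.

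A separate list of 26 proliferation genes, such as Mki67, Top2a and Cdk1, was read in the same samples. Of 25 tested, 15 were lower in MHs past the adjusted threshold, beside 0.998% of all genes, and the median log2 fold change was -2.50. With BM-MCs 25 of 25 were below 0, beside 46.5% of all genes, with a median of -0.83, and -0.54 within set 2. Limma gave 0 calls, and 19 lower at an unadjusted p under 0.05, beside 5.85% of all genes. The medians of the list by sample were -2.60 and -2.45 in MHs, 0.021, 0.25 and -0.25 in control SHPCs, and -1.28, -0.86 and -0.49 with BM-MCs, relative to the mean of the controls. The medians of the S-phase repair genes by sample were -0.60 and -0.74 in MHs, 0.057, 0.32 and -0.32 in control SHPCs, and -0.41, -0.36 and -0.23 with BM-MCs. Both lists had their highest sample in control SHPC replicate 2 and their lowest control in replicate 3. This order is not particular to them. The 27 repair genes outside the S-phase list showed it too, with control medians of 0.018, 0.087 and -0.063. So did the 69 other repair genes described below. The part of cell division in the differences of the repair genes was not tested.

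**Figure D4:**
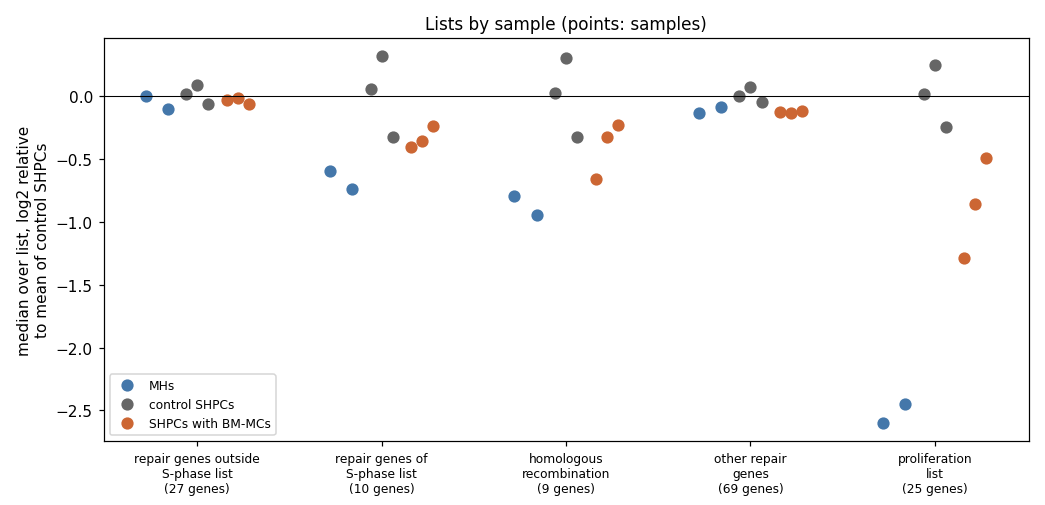
Median over each list of the log2 signal relative to the mean of control SHPCs (vertical axis), with 1 point for each sample. The medians of the 27 repair genes outside the S-phase list lie between -0.098 and 0.087 in all samples. Those of the 10 S-phase repair genes reach -0.74 and those of the 25 proliferation genes -2.60 in MHs. Single genes of the 27 had log2 fold changes from -1.72 to 0.57 in MHs.

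Of 87 other repair genes, 69 were tested. In MHs 4 of them were lower past the adjusted threshold and 0 were higher, beside 0.998% and 0.227% of all genes. At an unadjusted p under 0.05, limma gave 5 higher and 14 lower, beside 12.5% and 7.72% of all genes. The median log2 fold change was -0.11. Ube2t, which conjugates ubiquitin for the core complex, had a log2 fold change of -2.79 (adjusted p = 0.00649). Bard1, the partner of BRCA1, had -2.73 (adjusted p = 0.0126), Rad51ap1, which acts in homologous recombination, had -2.06 (adjusted p = 0.00247), and Hltf, a fork remodeller, had -1.32 (adjusted p = 0.0138). In each of these 4 genes the SHPC samples with BM-MCs lay between MHs and controls without overlap. These genes were picked for being low in MHs against the same controls, and the share of all genes in this order was not counted. With BM-MCs, 0 of 69 passed against controls, with a median of -0.091. At an unadjusted p under 0.05, limma gave 5 higher and 14 lower there, beside 10.3% and 5.85% of all genes. Against MHs, Rad51ap1 was higher in the SHPCs of livers with BM-MCs, by 1.29 (adjusted p = 0.0245).

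The mean of the 3 called genes over the 8 samples was most like Rrm2 (Pearson r = 0.996), Chaf1b (0.996), Bard1 (0.993), Gins1 (0.992) and Cdc45 (0.990) among genes outside the 50. These are descriptions over 8 samples that fall into the study's 3 groups, and no p is given.

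Markers of other cells were read in the same samples. Of 3 tested granulocyte markers, 3 were below 0 in both comparisons, with medians of -0.64 in MHs and -1.46 with BM-MCs, and the defining genes Mpo and Elane were too dim to test. Their summed level on the log2 scale was -1.34 and 0.59 in MHs, from 0.17 to 0.65 in control SHPCs, and from -1.46 to -1.06 with BM-MCs, so that all BM-MC samples were below all controls. Of 3 erythroid markers, 3 were below 0, with medians of -0.80 and -1.30, and control SHPC replicate 3 had the highest summed level, above the other 7 samples, which lay between -1.60 and -0.24 on the log2 scale. Kupffer cell markers had medians of 0.51 in MHs and 0.17 with BM-MCs over 6 genes, endothelial markers 0.26 and 0.12 over 5, stellate cell markers -0.11 and 0.039 over 6, biliary markers -0.74 and -0.35 over 4, and lymphocyte markers -0.041 and -0.098 over 2. Within set 2 the medians with BM-MCs were -1.04 for granulocyte, -2.57 for erythroid, 0.54 for Kupffer cell, 0.14 for endothelial, 0.18 for stellate cell, 0.15 for biliary and 0.062 for lymphocyte markers, so that biliary and lymphocyte markers turned above 0. None of these lists had a call, and their part in the differences of the repair genes was not tested.

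Promoter windows of 300 bases, 250 before and 50 after the start site in RefSeq (GRCr8), were found for 44 of the 50 genes and for 27457 genes in all. A gene counted as holding a motif if any of its windows had it on either strand. E2F-type motifs, spelled TTCCCGC or TTGGCGC or TTCGCGC or TTGCCGC, of which TTGGCGC can overlap CCAAT, were in 18 of 44 repair genes (40.9%), in 9 of 15 of the S-phase list, in 9 of 29 outside it, and in 10.6% of all genes. CCAAT was in 38.6% of repair genes and 39.6% of all genes, and the CHR motif TTTGAA in 15.9% and 19.4%. The windows of the 3 called genes follow, with E2F-type motifs in capitals.
Brca1, chr10:86977532-86977831, minus strand: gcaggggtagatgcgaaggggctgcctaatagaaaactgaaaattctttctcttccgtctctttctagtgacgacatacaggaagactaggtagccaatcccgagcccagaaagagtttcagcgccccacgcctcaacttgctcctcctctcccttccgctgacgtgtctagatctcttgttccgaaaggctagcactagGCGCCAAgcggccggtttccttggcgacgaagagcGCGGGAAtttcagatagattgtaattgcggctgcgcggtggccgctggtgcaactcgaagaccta
Exo1, chr13:90341768-90342067, plus strand: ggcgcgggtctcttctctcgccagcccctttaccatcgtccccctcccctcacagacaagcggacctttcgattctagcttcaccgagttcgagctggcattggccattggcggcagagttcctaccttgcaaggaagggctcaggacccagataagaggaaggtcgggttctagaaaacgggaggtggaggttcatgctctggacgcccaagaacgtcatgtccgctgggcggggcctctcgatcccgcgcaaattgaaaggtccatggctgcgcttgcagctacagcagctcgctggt
Rad18, chr4:147376820-147377119, minus strand: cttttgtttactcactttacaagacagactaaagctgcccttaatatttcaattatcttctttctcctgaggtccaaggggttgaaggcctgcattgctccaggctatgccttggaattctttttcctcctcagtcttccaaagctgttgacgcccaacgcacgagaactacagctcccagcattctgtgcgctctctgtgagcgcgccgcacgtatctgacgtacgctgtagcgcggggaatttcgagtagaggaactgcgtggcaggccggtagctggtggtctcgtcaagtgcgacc
Brca1 holds 2 such motifs, from -50 to -44 and from -15 to -9, on the strand opposite to transcription, and the windows of Exo1 and Rad18 hold none. Exo1 has CCAAT at -151 and at -144, read on the opposite strand. A match in these letters is no evidence of binding.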

How the data were processed

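RNA of 8 LMD samples was hybridised to 1-colour Agilent arrays. What the authors deposited was the processed intensity of each spot from Agilent Feature Extraction 10.7, background-subtracted and not scaled between arrays, together with a table of these intensities. For control SHPC replicate 2 only 20903 of 62976 features were in the scanner output, so its values came from the table (largest relative difference elsewhere 1.19e-06). Here log2 signals were set relative to each array's 75th percentile, outlier spots were left out and spots of 1 probe averaged. A probe was kept if marked well above background on 3 or more of the 7 arrays whose marks were complete. For the 23111 kept, limma 3.58.1 (R 4.3.3) was used, MHs in 1 fit of 8 samples and BM-MCs in a fit of 6, with Benjamini-Hochberg adjustment over all probes. The number of arrays limits the precision. On simulated data of 22969 probes, 100 were changed 4-fold and 100 were changed 2-fold. For MHs 74% and 31% of these were recovered with 4 false calls, and for BM-MCs 83% and 41% with 9. The simulated noise was normal and independent, without an effect of slide set, so recovery in the real data may be lower. Values in every sample are given for genes past the threshold, then for those without overlap against controls, and for the p53 targets, Ercc1 and Ercc4. Others given by sample were chosen after their values were seen. Other repair genes past the threshold are named. Genes and lists were chosen with earlier results of these data known. Alternatives covered scaling, filters, background, blocks, the fit, probes and samples left out. Promoters and strands came from RefSeq (GRCr8).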

Additional observations from a re-analysis of the deposited data

How the results depend on the processing

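With BM-MCs and all samples kept, the counts of repair genes called higher and lower against controls stayed at 0 and 0, except that Clspn, on control signals not above background, was called higher with no scaling, with all 8 samples in 1 fit and with array weights (1 each), and at an unadjusted p (3 higher and 3 lower by the methods' t-test, 3 and 6 by limma). Their median log2 fold change, -0.082, was -0.27 with median scaling and 0.0064 when the slide set was a block and within set 2. In MHs, 1 gene, Clspn, was called higher with median scaling, no scaling, a floor for dim spots, the replicate block and array weights, and 2 at an unadjusted p by either test. Of 23 alternatives with a test, Brca1 was called lower in MHs in 10 (adjusted p 0.013 to 0.239), Exo1 in 13 (0.00516 to 0.201) and Rad18 in 12 (0.0133 to 0.218), with 1 direction throughout. Rad54l was called in place of Brca1 with median scaling and quantile normalization, and Exo1 and Rad54l with no scaling. The 3 lower calls became 1 without a filter (Brip1, on MH signals not above background), 0 with normexp, 1 with the replicate block (Rad54l), 0 with only both groups in the fit, 5 with array weights, 0 with the methods' t-test after adjustment, and 6 and 9 at an unadjusted p by the methods' t-test and limma. The cause was not tested. The median of MHs, -0.12, was -0.036 with no scaling, -0.24 without a filter and -0.044 with normexp. Between SHPCs with BM-MCs and MHs the counts were 5 and 2, and 8 and 1, at an unadjusted p, and the median, 0.14, was -0.058 with median scaling, 0.0019 with quantile normalization, 0.059 with no scaling, 0.20 without a filter, 0.020 with normexp, 0.26 when the slide set was a block, and 0.084 with the mean of each gene's probes. There Brca2 turned to -1.04e-05 with median scaling and Polh to 0.091 when the slide set was a block. Over all 37 tested genes, the sign turned in at least 1 alternative for 18 genes there, for 16 between BM-MC and control SHPCs (10 of them when the slide set was a block) and for 11 between MHs and controls, and for 0 genes called in the report. The largest values that turned were 0.90 (Fanca), -0.54 (Eme1) and -0.47 (Rev3l).

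With each sample left out in turn, and a lone sample assumed to vary like the other groups, BM-MC counts lay between 0 and 1 higher and at 0 lower, with medians from -0.17 to -0.047. In MHs they lay between 0 and 1 higher and 0 and 4 lower, with medians from -0.12 to -0.062, and between BM-MC SHPCs and MHs at 0 and 0, with medians from 0.031 to 0.14.

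Samples with the same number did not deviate together in every pair (correlations 0.133, 0.0779 and 0.171 for SHPCs, 0.0506 and -0.0426 for MHs and controls), so the numbers were not taken to pair samples, and not every SHPC sample correlated best with its own number. With the replicate block, BM-MC counts were 0 and 0 with a median of -0.082, and the median against MHs was 0.12.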
